A study of Mus musculus with 13 samples.

Results

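The MS4A genes encode small membrane proteins that cross the cell membrane several times and sit beside immune receptors. The founding gene is Ms4a1, which encodes the B cell antigen CD20. The 7 genes described here, Ms4a4a, Ms4a4b, Ms4a4c, Ms4a6b, Ms4a6c, Ms4a6d and Ms4a7, were taken by gene symbol from the 55487 genes of the deposited count table, which lists Ensembl identifiers. These are ENSMUSG00000101389.1 for Ms4a4a, ENSMUSG00000056290.16 for Ms4a4b, ENSMUSG00000024675.19 for Ms4a4c, ENSMUSG00000024677.13 for Ms4a6b, ENSMUSG00000079419.4 for Ms4a6c, ENSMUSG00000024679.10 for Ms4a6d and ENSMUSG00000024672.11 for Ms4a7. The genes were chosen by family membership with earlier results of these data in view, so their difference between the groups is given as a description and the number of members past a threshold supports nothing.

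The study asked how an immune challenge of the pregnant mother affects the microglia, the resident macrophages of the brain, of her newborn mice. MIA libraries came from pups of dams exposed to maternal immune activation, and CON libraries from pups of control dams, all at postnatal day 4 per the titles. Cells were released with papain from whole brain without perfusion after the meninges had been taken off, and were captured with magnetic beads against CD11b, an integrin of microglia and of other myeloid cells. There were 5 retained MIA and 5 retained CON libraries, and another 3 libraries, MIA 6, MIA 7 and CON 6, were titled as excluded. The sources used here name neither the immune agent nor the mouse strain, the sex, the litters or the reason for exclusion. Nothing says whether libraries came from separate pups, so p-values measure only the spread between libraries, which may be technical.

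In the brain, several MS4A genes are macrophage genes. Ms4a7 is widely used to tell border-associated macrophages, the macrophages of the meninges, vessels and choroid plexus, from microglia. Ms4a4a is a gene of tissue macrophages whose protein has been tied in mice to signalling by the receptor dectin-1, and the human MS4A4A and MS4A6A region carries variants linked to Alzheimer disease and to levels of soluble TREM2. Ms4a4c is interferon-inducible and is found in mouse monocytes, Ms4a4b is a mouse T cell gene, and Ms4a6b, Ms4a6c and Ms4a6d are closely related copies found in macrophages and other leukocytes.

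Totals ran from 25387055 to 35593541 counts per library, and 19577 to 20956 genes had at least 1 count. Levels are given as CPM, counts scaled to a common library size with the trimmed mean of M values (TMM). Where a gene had 0 counts, its true count could be up to 3, or 0.0843 to 0.118 CPM by library. This bound covers counting error only, since the reads carried no molecular identifiers. In the fit of 15511 genes with edgeR, 892 genes were higher and 710 lower in MIA than in CON at a Benjamini-Hochberg threshold of 0.05. These are 10.3% of the genes tested, 5.75% higher and 4.58% lower. Scaled to total counts alone, 1036 were higher and 496 lower. The cells carried microglial markers, which (12 of 12 detected) summed to 15840 to 20473 CPM in MIA and to 24082 to 31093 CPM in CON. Endothelial markers, 10 of 10 of them higher in MIA by edgeR, summed to 2556 to 4319 CPM in MIA and to 870 to 1411 CPM in CON. With all 13 libraries 9 of these 10 passed, against 659 of 15618 genes tested, or 4.22%. With all 13 without CON 1 and CON 2, 1 of 10 passed, against 90 of 16050 genes tested. Markers of tissue dissociation (12 of 12) summed to 6400 to 7643 CPM in MIA, and to 2665 in CON 1, 2448 in CON 2 and 9311 to 10666 CPM in the other 3 retained CON libraries, with 0 of 12 past edgeR and 0 at an unadjusted p under 0.05 (DESeq2 and limma-voom 0). In all 13 libraries without CON 1 and CON 2, 3 of these 12 passed edgeR, where 90 genes passed in all. Erythroid markers summed to 1743 to 3049 CPM in MIA and, again lowest in CON 1 and CON 2, to 61.4 to 2197 CPM in CON, with 0 of 6 past edgeR (0 at an unadjusted p under 0.05; DESeq2 and limma-voom 0). Neuronal markers, 5 of 8 of them higher in MIA by edgeR, summed to 105 to 156 CPM in MIA and 55.5 to 75.6 CPM in CON. Of these 8, 0 passed in all 13 libraries without CON 1 and CON 2, the fit in which 90 of 16050 genes did. Whether differences in cell content or handling play a part in these marker values or in the results below was not tested. In such bulk samples, fewer cells of a type and less RNA per cell cannot be told apart.

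All 7 members lie in 1 cluster on chromosome 19. In the mouse build GRCm38 with the GENCODE M21 annotation the cluster spans positions 11321039 to 11604849, or 284 kb. The sources used here do not give the authors' build, and the count table holds no coordinates. Along the chromosome come Ms4a7 (11321039 to 11336146, minus strand), Ms4a4a (11375523 to 11392790, plus), Ms4a4c (11404770 to 11427246, plus), Ms4a4b (11443553 to 11467055, plus), Ms4a6c (11469366 to 11482192, plus), Ms4a6b (11516512 to 11531256, plus) and Ms4a6d (11586604 to 11604849, minus). The copies are related enough for reads to be shared. Of the 50-base words in the annotated transcripts of Ms4a4c, 8.19% also occur in transcripts of other genes, most of them in Ms4a4b. For Ms4a6b the share is 3.57% and for Ms4a6d 2.54%, while it is 0.306% for Ms4a7 and 0 for Ms4a4a. For Ms4a6c it is 51.4%, of which nearly all is the antisense gene BE692007 on the opposite strand. The library kit does not mark the strand, so reads in the sequence that Ms4a6c and BE692007 share cannot be told apart. The Ms4a6c values are uncertain to that degree. Ms4a4c and Ms4a6b also overlap a predicted gene on the opposite strand each, Gm5692 and Gm19261, and reads in those overlaps are uncertain for the same reason.

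RefSeq, on build GRCm38.p6, gives a promoter window, 250 bases before to 50 after an annotated start, for 6 of the 7 members. The 250 bases before the start are printed for the 2 pairs of neighbouring genes whose windows share a long identical run. The second pair holds Ms4a4c, whose retained groups did not overlap. Capitals mark the longest run that both windows of a pair have in common, 48 bases in the first pair and 20 in the second.
Ms4a6b, chr19:11518309-11518558, plus strand: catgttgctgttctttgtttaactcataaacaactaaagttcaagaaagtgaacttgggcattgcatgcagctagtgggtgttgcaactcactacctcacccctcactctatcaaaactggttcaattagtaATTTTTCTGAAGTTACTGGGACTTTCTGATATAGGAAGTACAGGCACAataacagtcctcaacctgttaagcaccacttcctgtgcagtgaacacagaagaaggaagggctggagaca
Ms4a6c, chr19:11469118-11469367, plus strand: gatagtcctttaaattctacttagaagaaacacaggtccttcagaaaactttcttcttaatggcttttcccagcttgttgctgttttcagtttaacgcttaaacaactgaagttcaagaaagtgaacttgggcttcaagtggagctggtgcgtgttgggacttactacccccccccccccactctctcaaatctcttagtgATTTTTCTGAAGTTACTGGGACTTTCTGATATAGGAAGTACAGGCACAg
Ms4a4c, chr19:11407411-11407660, plus strand: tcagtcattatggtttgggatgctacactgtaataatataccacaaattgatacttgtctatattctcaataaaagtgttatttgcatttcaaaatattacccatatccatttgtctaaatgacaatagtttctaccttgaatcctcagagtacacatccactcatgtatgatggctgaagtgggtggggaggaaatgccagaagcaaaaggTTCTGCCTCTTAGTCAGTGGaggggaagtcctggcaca
Ms4a4b, chr19:11443308-11443557, plus strand: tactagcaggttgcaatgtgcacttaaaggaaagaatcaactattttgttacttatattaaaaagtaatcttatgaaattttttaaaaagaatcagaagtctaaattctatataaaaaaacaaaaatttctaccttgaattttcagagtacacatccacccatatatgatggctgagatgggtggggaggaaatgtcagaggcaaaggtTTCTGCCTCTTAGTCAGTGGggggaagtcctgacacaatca

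The shared run begins at position -118 from the RefSeq start of Ms4a6b and at -49 from that of Ms4a6c, so its distance from the annotated start differs. In Ms4a4c it begins at -38 and in Ms4a4b at -41. No other pair of windows from different members shared more than 9 bases in a row. The windows of Ms4a4c and Ms4a6b lie inside the GENCODE gene spans given above. GAGGAA, the core letters bound by the myeloid factor PU.1, were searched on both strands and occur in 28.3% of all 32851 mouse windows of the same length. Among the members they occur once each in the windows of Ms4a4c and Ms4a4b. They also occur once in 1 window of Ms4a7, after the annotated start, while a second Ms4a7 window holds no match. GAAA, any 2 bases and GAAA again, the letters of the interferon-stimulated response element on either strand, occur in 3.44% of all windows and in none of the members' windows. A match describes letters only.

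The members covered a wide range of levels, and their order was much the same in every library. Per kilobase of the longest coding transcript, Ms4a6d stood highest at 67.1 ± 13.2 CPM per kb over the 13 libraries (SD). Ms4a6b followed at 36.4 ± 6.18, Ms4a6c at 23.8 ± 4.22, Ms4a7 at 23.4 ± 5.83, Ms4a4a at 15.7 ± 5.49, Ms4a4c at 1.08 ± 0.428 and Ms4a4b at 0.0451 ± 0.0383 CPM per kb. Ms4a6d exceeded Ms4a6b, and Ms4a6b exceeded Ms4a6c, in 13 of 13 libraries. Ms4a6c and Ms4a7 did not differ beyond their spread: Ms4a6c was the higher in 6 of 13 libraries, with a mean log2 ratio of 0.049 ± 0.30 (SD). Ms4a7 exceeded Ms4a4a in 12 of 13 libraries, CON 1 being the exception, and the mean log2 ratio was 0.60 ± 0.53 (SD). The step from Ms4a4a down to Ms4a4c was 3.89 ± 0.73 on the log2 scale (SD, 13 libraries). The step from Ms4a4c down to Ms4a4b was 4.81 ± 1.45 over the 12 libraries in which Ms4a4b had a count.

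**Figure D1:**
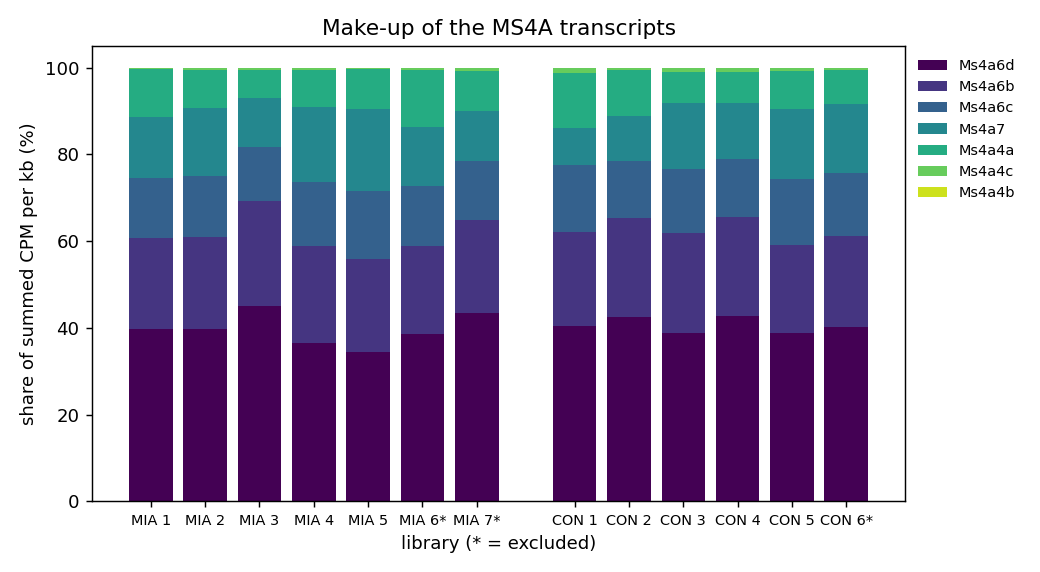
Share of each member in the summed CPM per kb of the 7 members, in percent, for the 7 MIA and 6 CON libraries (asterisks mark excluded libraries). Ms4a6d holds 39.1% on average in the 5 retained MIA libraries and 40.7% in the 5 retained CON libraries, and Ms4a7 ranges from 8.55 to 19.1% over the 13 libraries.

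The shares of the abundant members were close in the groups, as the stacked shares by library show, while that of Ms4a4c was lower in MIA. Ms4a6d held 39.1 ± 4.02% of the summed CPM per kb in MIA and 40.7 ± 1.86% in CON (SD, n = 5 each). Ms4a6b held 22.0 ± 1.37% in MIA and 22.1 ± 1.24% in CON, and Ms4a6c 14.2 ± 1.15% in MIA and 14.3 ± 1.09% in CON. Ms4a7 was at 15.5 ± 2.99% in MIA and 12.7 ± 3.21% in CON, a gap within the spread. Ms4a4c held 0.456 ± 0.147% in MIA and 0.881 ± 0.207% in CON, and the retained groups overlap through CON 2, at 0.573%. The whole sum was 146 ± 28.3 CPM per kb in MIA and 178 ± 26.2 in CON, and the ranges overlap.

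Ms4a4c, the interferon-inducible monocyte gene, was the member that separated the retained groups. It stood at 0.895, 1.28, 1.09, 1.39 and 0.848 CPM in MIA 1 to MIA 5, from 27, 33, 32, 37 and 24 counts. In CON 1 to CON 5 it stood at 2.80, 2.11, 2.57, 2.95 and 2.72 CPM, from 81, 58, 88, 97 and 86 counts. Every retained MIA library was below every retained CON library, as was the case for 4.36% of the genes tested. The means were 1.10 ± 0.236 CPM in MIA and 2.63 ± 0.320 CPM in CON (SD, n = 5 each). The fitted ratio of MIA to CON was 0.419, or -1.25 ± 0.29 as a log2 fold change (SE; adjusted p = 0.0148 by edgeR over all genes tested). DESeq2 gave an adjusted p of 4.71e-05, and leaving out 1 library at a time gave log2 fold changes of -1.35 to -1.17.

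The excluded libraries, which had no part in that fit, did not separate. Ms4a4c stood at 1.79 and 2.02 CPM in MIA 6 and MIA 7, against 1.80 CPM in CON 6, which is below every retained CON library and within the range of the excluded MIA pair. With all 13 libraries the log2 fold change was -0.90 ± 0.27 (SE; adjusted p = 0.0687 by edgeR), and the call was lost. In that fit 659 of 15618 genes passed, or 4.22%, and 0 of the 6 members tested, with 1 member at an unadjusted p under 0.05. Measured against the mean of the 12 microglial markers, Ms4a4c was at -9.45 ± 0.36 in MIA and at -8.76 ± 0.32 in CON on the log2 scale (SD, n = 5 each), a difference of -0.69. With library sizes taken from those markers its log2 fold change was -0.73 ± 0.35 (SE; adjusted p = 0.0955 by edgeR).

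Genes that share the cell type or the regulation known for Ms4a4c were looked at beside it. The monocyte gene Ly6c2 was at 0.543 to 1.09 CPM in MIA and at 0.875 to 3.76 CPM in CON, with overlap. Its log2 fold change was -1.47 ± 0.46 (SE; edgeR adjusted p = 0.0600). Ccr2, the chemokine receptor of the same monocytes, was at 3.84 ± 1.23 CPM in MIA and 4.42 ± 1.83 CPM in CON (SD, n = 5 each; edgeR adjusted p = 0.777). Of 10 monocyte markers, 1 was higher and 1 lower by edgeR: Fn1, fibronectin, which vessel cells also make, had a log2 fold change of 1.30 ± 0.15, and S100a4, a calcium-binding protein, -0.77 ± 0.22 (SE). Over these 10 the median log2 fold change was -0.23, 3 had an unadjusted p under 0.05 by edgeR, and DESeq2 called 3 and limma-voom 2. Summed monocyte markers reached 309 to 498 CPM in MIA and 172 to 236 CPM in CON, mostly Fn1, and none of the 10 was at 0 in all libraries. Of 12 interferon response genes, 0 passed edgeR, 3 had an unadjusted p under 0.05, and DESeq2 called 1 and limma-voom 0. Their median log2 fold change was -0.23, against -0.0085 over all genes tested. Bst2, which holds budding viruses at the cell surface, was at 54.0 ± 4.96 CPM in MIA and 68.9 ± 11.8 CPM in CON (SD, n = 5 each; edgeR adjusted p = 0.0807). The part of a difference in monocyte content or in interferon signalling in the Ms4a4c values was not tested.

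**Figure D2:**
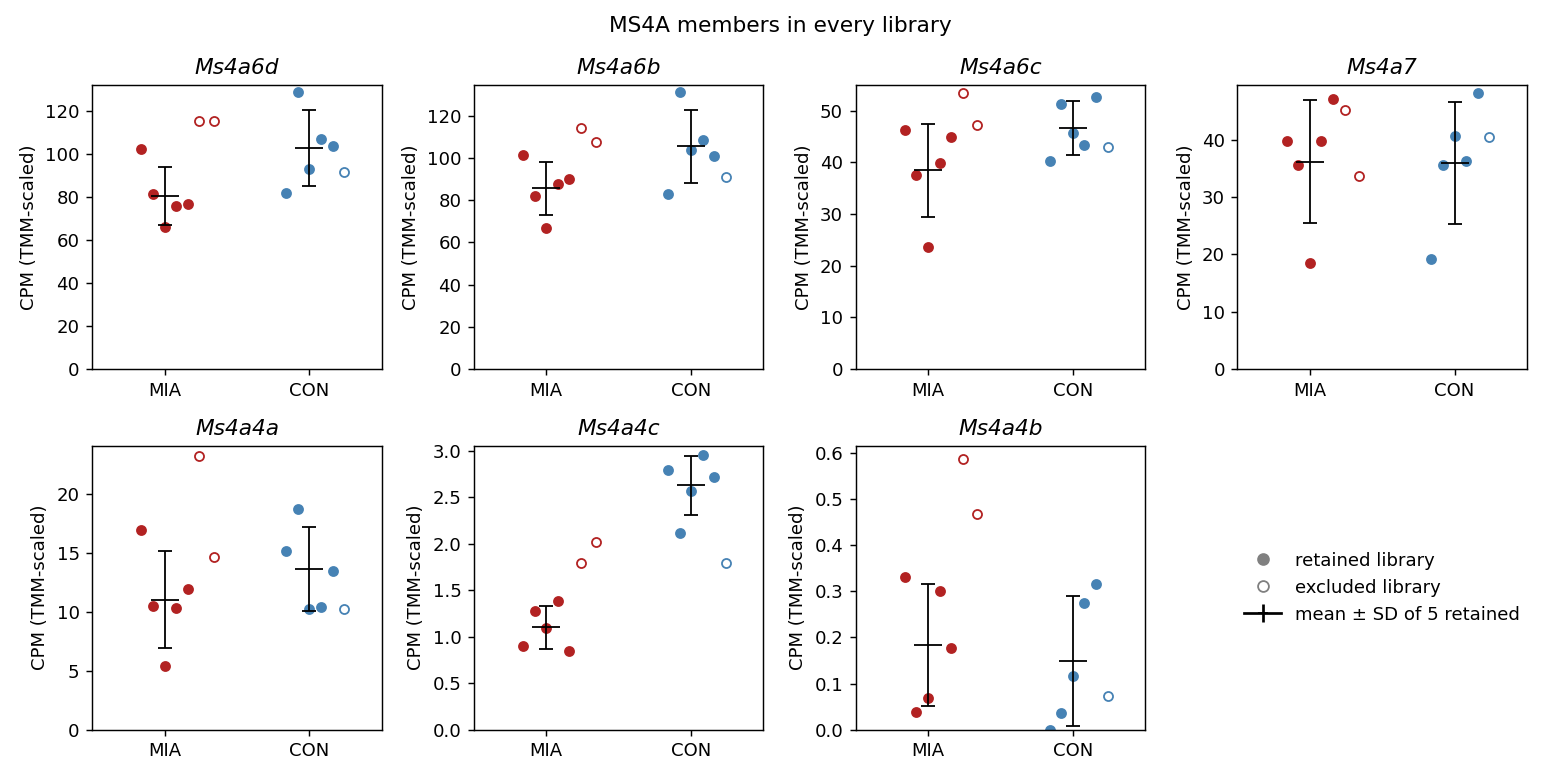
TMM-scaled CPM of each member in every library, with its own vertical axis from 0, MIA left and CON right; filled points are retained libraries, open points excluded ones, and bars the mean ± SD of the 5 retained libraries. The filled points of Ms4a4c do not overlap between the groups, at 0.848 to 1.39 CPM in MIA and 2.11 to 2.95 CPM in CON, while its open points lie between at 1.79 to 2.02 CPM; in the other 6 panels the groups overlap.

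Ms4a6d and Ms4a6b, the most abundant members, tracked each other from library to library. Ms4a6d stood at 102, 81.1, 65.8, 75.6 and 76.6 CPM in MIA 1 to MIA 5, and at 81.7, 129, 92.8, 107 and 103 CPM in CON 1 to CON 5. The groups overlap through MIA 1, which was higher than CON 1 and CON 3. The mean was 80.3 ± 13.6 CPM in MIA and 103 ± 17.6 CPM in CON (SD, n = 5 each), and the log2 fold change -0.35 ± 0.13 (SE; adjusted p = 0.119 by edgeR). Ms4a6b stood at 101, 82.0, 67.0, 87.9 and 90.2 CPM in MIA 1 to MIA 5, and at 83.0, 131, 104, 108 and 101 CPM in CON 1 to CON 5. Here too MIA 1 was high and CON 1 low within its own group. The mean was 85.7 ± 12.6 CPM in MIA and 106 ± 17.4 CPM in CON, and the log2 fold change came to -0.30 ± 0.13 (SE; adjusted p = 0.167 by edgeR).

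Both values turned on single libraries. Without CON 1, Ms4a6b had an edgeR adjusted p of 0.0397 and Ms4a6d of 0.0340, and without MIA 1 Ms4a6d had one of 0.0364. The excluded MIA libraries were on the high side, with 115 CPM of Ms4a6d in both MIA 6 and MIA 7, against 91.5 CPM in CON 6. For Ms4a6b these values were 114 and 108 CPM in MIA 6 and MIA 7, against 90.9 CPM in CON 6. In all 13 libraries the ratio of Ms4a6b to Ms4a6d counts stayed between 0.934 and 1.18, whereas that of Ms4a6b to Ms4a7 counts ran from 1.91 to 4.32.

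Ms4a6c, a neighbouring copy, was lowest in 1 MIA library. It stood at 46.2, 37.5, 23.7, 39.9 and 45.0 CPM in MIA 1 to MIA 5, and at 40.3, 51.4, 45.8, 43.4 and 52.7 CPM in CON 1 to CON 5. MIA 3 was the lowest library by a wide margin, and the groups overlap. The mean was 38.5 ± 9.00 CPM in MIA and 46.7 ± 5.25 CPM in CON (SD, n = 5 each; log2 fold change -0.28 ± 0.16, SE; edgeR adjusted p = 0.329). Its antisense partner BE692007, with 64 to 166 counts in a library, was at 3.09 ± 0.972 CPM in MIA and 4.17 ± 1.27 CPM in CON (edgeR adjusted p = 0.440).

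Ms4a4a, the tissue macrophage gene, varied widely within both groups. It stood at 16.9, 10.5, 5.41, 10.3 and 11.9 CPM in MIA 1 to MIA 5, and at 15.2, 18.7, 10.3, 10.4 and 13.5 CPM in CON 1 to CON 5. MIA 3 lay lowest, and the other 4 retained MIA libraries fell within or near the CON range. The means were 11.0 ± 4.12 CPM in MIA and 13.6 ± 3.54 CPM in CON (SD, n = 5 each), and the log2 fold change came to -0.30 ± 0.26 (SE; adjusted p = 0.557 by edgeR). Among the excluded libraries MIA 6 had 23.2 CPM, the highest of all 13, MIA 7 had 14.6 and CON 6 had 10.2 CPM. With all 13 libraries the log2 fold change was 0.025, so its sign turned.

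Ms4a7, the border macrophage gene, had nearly the same mean in both groups. It stood at 39.9, 35.7, 18.4, 39.9 and 47.2 CPM in MIA 1 to MIA 5, and at 19.2, 35.6, 40.6, 36.2 and 48.1 CPM in CON 1 to CON 5. MIA 3 and CON 1 were the low libraries, 1 in each group, and the other 11 libraries held 33.7 to 48.1 CPM. The means were 36.2 ± 10.8 CPM in MIA and 36.0 ± 10.6 CPM in CON (SD, n = 5 each; log2 fold change 0.0096 ± 0.27, SE; edgeR adjusted p = 0.989). With an SE of 0.27, a difference of that size on the log2 scale was not detectable.

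Ms4a4b, the T cell gene, was near the limit of detection. It had 10, 1, 2, 8 and 5 counts in MIA 1 to MIA 5, and 0, 1, 4, 9 and 10 counts in CON 1 to CON 5. The excluded libraries had 18 counts in MIA 6, 12 in MIA 7 and 2 in CON 6, which brings the sum to 82 counts. It was too low for the edgeR filter and was not tested. The 10 T and NK cell markers summed to 2.45 to 11.5 CPM in MIA and 4.70 to 11.2 CPM in CON, mostly Cd4, which macrophages can also express, and Cd3e, a chain of the T cell receptor complex, was at no more than 0.233 CPM in any library. None of the 3 that could be tested passed edgeR (0 at an unadjusted p under 0.05; DESeq2 and limma-voom 0).

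**Figure D3:**
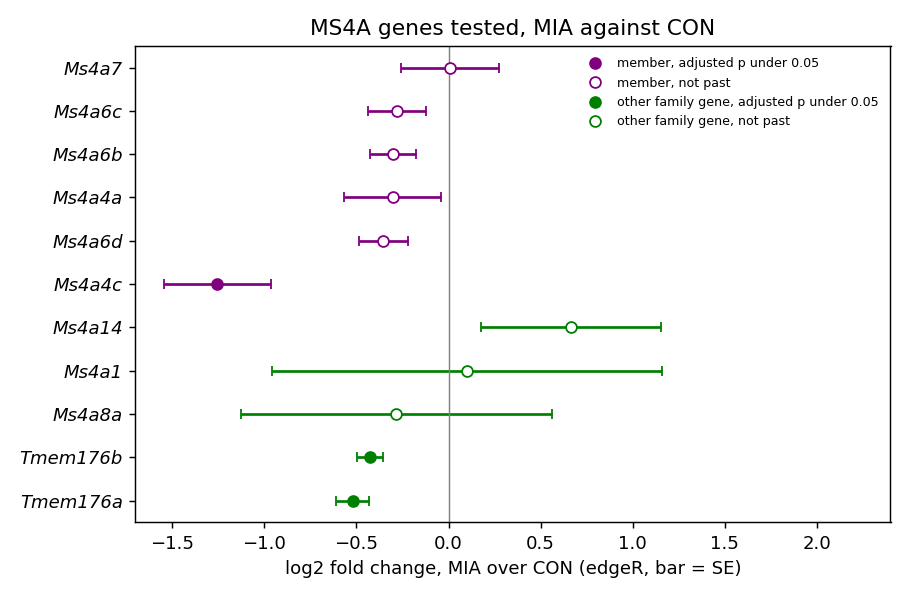
Log2 fold change of MIA over CON in the 5 against 5 retained libraries for the 6 members tested and 5 other genes of the family, with SE bars from edgeR; filled points passed an adjusted p of 0.05. Ms4a4c lies at -1.25, the other members between -0.35 and 0.0096, and Tmem176a and Tmem176b at -0.52 and -0.42.

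Over the family, 5 of the 6 members tested had a log2 fold change below 0, as did 51.1% of all genes tested. The median was -0.30 over the 6 members, against -0.0085 over all genes. By edgeR 1 of the 6 passed, against the background of 10.3% given above, and 3 had an unadjusted p under 0.05. Levels were also set against the mean of the 12 microglial markers. That mean was 9.65 ± 0.21 in MIA and 10.2 ± 0.146 in CON on the log2 CPM scale, lower in MIA by 0.53. Relative to it, MIA minus CON was 0.18 for Ms4a4a, 0.24 for Ms4a6b, 0.22 for Ms4a6c, 0.18 for Ms4a6d and 0.54 for Ms4a7, against -0.69 for Ms4a4c. The spread was of the same order: Ms4a7 was at -4.54 ± 0.65 in MIA and -5.08 ± 0.50 in CON, and Ms4a4a at -6.27 ± 0.64 in MIA and -6.45 ± 0.26 in CON (SD, n = 5 each). The groups overlap for each of these 6 members, Ms4a4c included. With library sizes from those markers the median of all genes was 0.53, against -0.0085 with TMM, so such values are relative to the microglial list and not to the library. In that fit 7549 of 15511 genes passed edgeR, 7546 of them higher in MIA. Of the 6 members 0 passed, and 0 had an unadjusted p under 0.05.

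Other genes of the family give the contrast. Of 13 listed, 7 had at least 10 counts in all and 5 could be tested. Tmem176a and Tmem176b, relatives that lie outside the cluster, on chromosome 6, encode membrane proteins of macrophages and dendritic cells. Tmem176b was at 224 ± 6.83 CPM in MIA and 300.5 ± 25.4 CPM in CON, and Tmem176a at 69.3 ± 6.17 CPM in MIA and 99.6 ± 10.6 CPM in CON (SD, n = 5 each). Both fell without overlap between the groups, Tmem176b by 0.42 ± 0.07 and Tmem176a by 0.52 ± 0.09 in log2 units (SE), with edgeR adjusted p of 0.00194 and 0.00252. The excluded libraries did not show this: Tmem176b was at 237 and 221 CPM in MIA 6 and MIA 7, against 215 CPM in CON 6, which is below every MIA library. Tmem176a was at 71.3 and 69.0 CPM in MIA 6 and MIA 7, against 72.9 CPM in CON 6, within the range of the retained MIA libraries. With all 13 libraries the log2 fold changes were -0.35 for Tmem176b and -0.45 for Tmem176a (edgeR adjusted p of 0.0332 and 0.0206). The pair overlaps on opposite strands, so reads in the overlap cannot be assigned to either. Both had an edgeR adjusted p above 0.05 in all 13 libraries without CON 1 and CON 2, at 0.102 for Tmem176b and 0.0695 for Tmem176a, and with library sizes from the microglial markers their log2 fold changes were 0.12 and 0.0098.

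The remaining family genes were rare. Ms4a14 was at 2.10 ± 1.11 CPM in MIA and 1.32 ± 0.583 CPM in CON, and the log2 fold change came to 0.67 ± 0.49 (SE; adjusted p = 0.478 by edgeR). Ms4a1, which encodes CD20, was at 0.298 ± 0.246 CPM in MIA and 0.272 ± 0.265 CPM in CON, and Ms4a8a at 0.525 ± 0.401 CPM in MIA and 0.640 ± 0.488 CPM in CON. Ms4a2, the beta chain of the high-affinity IgE receptor, had 49 counts in all, and Ms4a3, a gene of myeloid precursors, 26. Ms4a4d had 7 counts, and Ms4a5, Ms4a10, Ms4a13, Ms4a15 and Ms4a18 had 0 counts in all 13 libraries. Defining markers of the cells that use these genes were scarce as well: the B cell factor Pax5 reached 0.537 CPM, and the IgE receptor chain Fcer1a 0.117 CPM. The 6 B cell markers together summed to 250 to 358 CPM in MIA and 323 to 480 CPM in CON, nearly all Ighm and Cd79b, and Cd79b was lower by edgeR, at 38.0 ± 4.89 CPM in MIA and 59.1 ± 7.17 CPM in CON (SD, n = 5 each). The 7 mast cell and basophil markers summed to 52.7 to 91.7 CPM in MIA and 24.2 to 40.9 CPM in CON, nearly all Kit and Gata2, both higher in MIA by edgeR. The 10 neutrophil and precursor markers summed to 28.5 to 64.4 CPM in MIA and 51.3 to 123 CPM in CON, and 0 of the 8 tested passed edgeR (2 at an unadjusted p under 0.05; DESeq2 called 3 and limma-voom 0).

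Genes whose proteins work with MS4A proteins, or in the same receptor pathways, were lower in MIA. Of 12 receptor partners and signalling genes, 10 were lower and 0 higher by edgeR at an adjusted p under 0.05. Among all genes tested, 4.58% were lower and 5.75% higher. The median log2 fold change of the list was -0.42. Their sum was 3269 to 3962 CPM in MIA and 4417 to 5502 CPM in CON. Trem2, the lipid receptor whose soluble form is linked to the human MS4A locus, was at 493 ± 72.4 CPM in MIA and 746 ± 84.2 CPM in CON (SD, n = 5 each), or -0.60 ± 0.11 in log2 units (SE; adjusted p = 0.00384 by edgeR). Fcer1g, the common gamma chain of Fc receptors, was at 502 ± 59.6 CPM in MIA and 713 ± 78.6 CPM in CON. The kinase Lyn was at 392 ± 17.5 CPM in MIA and 524 ± 16.6 CPM in CON. The exceptions were Adam10, a protease that sheds Trem2, at 365 ± 16.9 CPM in MIA and 372 ± 42.8 CPM in CON, and Clec7a, which encodes dectin-1, at 59.4 ± 12.1 CPM in MIA and 79.5 ± 31.6 CPM in CON. The 12 microglial markers moved the same way, with 11 lower by edgeR and a median of -0.53. With all 13 libraries 3 of the 12 partners and 2 of the 12 microglial markers passed, against 659 of 15618 genes tested, or 4.22%. Without CON 1 and CON 2 as well, 0 of either list passed, in a fit where only 90 of 16050 genes did.

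The profile of a member over the 13 libraries was compared with those of the other genes in a set of 13894 that includes the member. The measure was the root mean square difference of log2 CPM centred on each gene's own mean. Every point in this comparison shares the library, its depth and its mix of cells, and the values are descriptive. The 3 nearest genes to Ms4a7 were Pf4, at 0.112, Dab2, at 0.138, and Lyve1, at 0.178, against a root mean square of 0.42 for Ms4a7 around its own mean. Pf4, platelet factor 4, and Lyve1, a hyaluronan receptor, are border macrophage markers, and Dab2 is an endocytic adaptor of the same cells. Pf4 stood at 109 CPM in MIA 3 and 128 CPM in CON 1, and at 219 to 342 CPM in the other 11 libraries. Dab2 was likewise lowest in MIA 3, at 355 CPM, and in CON 1, at 380 CPM.

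The 12 border macrophage markers, taken as a sum, were lowest in the same libraries. They summed to 1293 CPM in MIA 3 and 2395 to 2925 CPM in the other 4 retained MIA libraries, and to 2034 CPM in CON 1 and 2341 to 2995 CPM in the other 4 retained CON libraries. Not every marker did so singly: Cd163 was at 81.0 CPM in CON 1, above CON 4, at 75.6 CPM, and MIA 2, at 72.6 CPM. Between the groups 0 of the 12 were higher and 1 lower by edgeR, Stab1, a scavenger receptor, with a log2 fold change of -0.34 ± 0.09 (SE; adjusted p = 0.0281). The median over the list was -0.0079. None of the markers was at 0 in all libraries.

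The nearest genes to Ms4a4a were Cd163, the haemoglobin scavenger receptor of border macrophages, at 0.247, Fcgr2b, the inhibitory Fc receptor, at 0.284, and Ms4a6c, at 0.301, against a root mean square of 0.50 for Ms4a4a itself. Cd163 stood at 34.8 CPM in MIA 3 and at 162 CPM in MIA 6, the libraries in which Ms4a4a was lowest and highest. Ms4a7 was 3062nd nearest to Ms4a4a, at 0.506: the genes agree in MIA 3 but not in CON 1, where Ms4a4a was at 0.29 and Ms4a7 at -0.89 on the centred log2 scale.

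Ms4a6b and Ms4a6d were each other's nearest gene of the 13894, at 0.0957. After Ms4a6d the nearest to Ms4a6b were Casp8ap2, at 0.117, and Rnf13, an endosomal ubiquitin ligase, at 0.119. After Ms4a6b the nearest to Ms4a6d were Bcap29, a protein of the endoplasmic reticulum, at 0.0980, and Rnf13, at 0.105. The nearest to Ms4a6c were Casp8ap2, at 0.126, Dnase1l1, at 0.130, and Dse, an enzyme of dermatan sulfate, at 0.130, with Ms4a6b at rank 8. Ms4a6b did not follow the microglial list throughout: in MIA 4 and MIA 5 the microglial markers were lowest of all libraries, at -0.49 and -0.50 on the centred log2 scale, while Ms4a6b was at -0.13 and -0.094. Ms4a6d lay nearer to the list there, at -0.31 and -0.29.

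**Figure D4:**
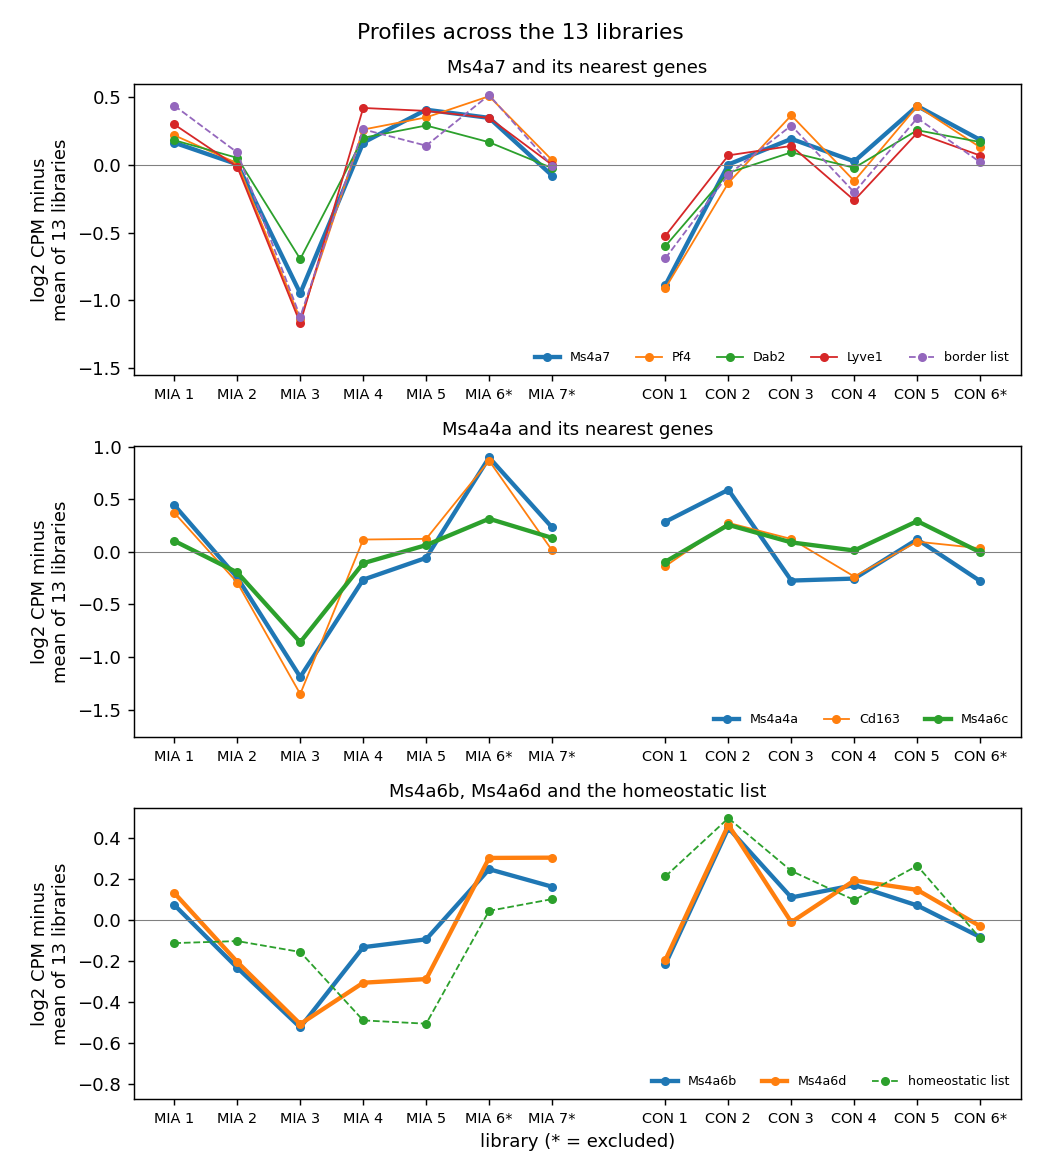
Centred log2 CPM (value minus the gene's mean over the 13 libraries) in each library, MIA left and CON right, asterisks marking excluded libraries, for Ms4a7 with Pf4, Dab2, Lyve1 and the border macrophage list (top), Ms4a4a with Cd163 and Ms4a6c (middle), and Ms4a6b and Ms4a6d with the list of 12 microglial markers, named homeostatic in the panel (bottom). Ms4a7 dips in MIA 3, to -0.95, and in CON 1, to -0.89; Ms4a4a is lowest in MIA 3, at -1.19; Ms4a6b and Ms4a6d lie farthest apart in MIA 5, at -0.094 and -0.29.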

How the data were processed

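RNA from CD11b bead-selected microglia was sequenced after oligo-dT priming in the manner of Smart-Seq2 and tagmentation, per the labels' protocols; such libraries do not keep the strand. The authors deposited 1 table of expected counts, estimated counts per gene that need not be whole, without normalization across libraries; RSEM, STAR and DESeq2 are named without versions or roles, per the submitters' processing notes. Of the nonzero values 20.6% were not whole, and rounding moved a value by at most 0.5. Gene symbols were matched by Ensembl ID (54349 IDs exactly, 55141 with or without the version). CT010467.1 took 14.6 to 18.8% of the counts.

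The quasi-likelihood test of edgeR 4.0.16 (R 4.3.3; TMM scaling, genes kept by filterByExpr, robust option, no covariate) compared the 5 retained MIA with the 5 retained CON libraries, with a Benjamini-Hochberg threshold of 0.05 over all genes tested. CPM values are TMM-scaled over 13 libraries, and log2 CPM uses a prior count of 2. Alternatives were RLE size factors, total counts, TMM without the most abundant gene, no filter and a filter of 10 CPM, DESeq2 1.42.0, limma-voom (limma 3.58.1), a replicate block, no robust option, all 13 libraries, leaving out each library, and leaving out CON 1 and CON 2. The pipeline was tested on simulated data. Levels between genes were compared per length of the longest coding transcript.

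The members and the 15 gene lists were chosen with earlier results of these data known. Named were the 7 members, other family genes with at least 10 counts, the members of a list that passed (by count) and up to 4 of its most abundant members, and the 3 genes nearest to each member with a mean of at least 5 CPM; clone and predicted-model names were left out of the nearest genes. Genes named beyond this rule (Ly6c2, Ccr2, Adam10, Clec7a, the antisense gene BE692007 and cell type markers at or near 0) were chosen after their values were seen. The excluded libraries entered the main fit nowhere.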

Additional observations from a re-analysis of the deposited data

Results flagged for a closer look

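In the excluded libraries, 4 member values in MIA lay above every one of the 6 CON libraries. Ms4a4a was at 23.2 CPM in MIA 6, against 10.2 to 18.7 CPM in CON. Ms4a6c was at 53.5 CPM in MIA 6, against 40.3 to 52.7 CPM in CON. Ms4a4b was at 0.586 CPM in MIA 6 and 0.467 CPM in MIA 7, against 0 to 0.316 CPM in CON. These libraries enter no test of the 5 against 5 comparison, and in none of these cases was a cause tested.

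Among the retained MIA libraries, 1 library stood apart from 4 at 0 for the rare family genes Ms4a2, at 0.170 CPM in MIA 3 from 5 counts, and Ms4a3, at 0.166 CPM in MIA 1 from 5 counts. In 56 such tests of single libraries only these 2 flags arose. With 4 libraries at 0, any count in the remaining library gives a flag, whatever its size. The nominal rate of about 1 in 20 therefore does not apply to them, and nothing is concluded from them.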

How the results depend on the processing

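The number of genes past the threshold, 1602, was 659 with all 13 libraries, 90 with all 13 without CON 1 and CON 2, 7549 with library sizes from the microglial markers, and 1037 to 2263 when 1 library was left out (1037 without MIA 5, 1057 without MIA 4). The last scaling and the fit without CON 1 and CON 2 on all 13 libraries were chosen after seeing the data. Of the members, 1 passed; 0 did with all 13 libraries, with the microglial scaling, with all 13 libraries without CON 1 and CON 2, and under the 10 CPM filter, which removes Ms4a4c from the test, and 1 to 3 did when 1 library was left out. Ms4a4c had a negative log2 fold change in every fit that tested it, and lost its call in the fits with all 13 libraries (-0.90), with all 13 without CON 1 and CON 2 (-0.92, edgeR adjusted p = 0.124) and with the microglial scaling (-0.73). The range of its edgeR adjusted p over the fits without 1 library was 0.0185 to 0.0451.

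Signs turned for Ms4a4a with all 13 libraries (0.025), with all 13 without CON 1 and CON 2 (0.25) and with the microglial scaling (0.26). That scaling also turned Ms4a6b (0.26), Ms4a6c (0.28), Ms4a6d (0.19), Ms4a8a (0.31), Tmem176a (0.0098) and Tmem176b (0.12). It makes the microglial markers equal between the groups by construction. Ms4a7 was at -0.0096 with limma-voom, -0.21 without CON 1 and CON 2, -0.16 with all 13 without them, and -0.15 to 0.18 when 1 library was left out. Ms4a1 was at -0.31 with all 13 libraries, -0.62 without CON 1 and CON 2, -0.89 with all 13 without them, and -0.23 to 0.56 when 1 library was left out, and Ms4a8a at -0.71 to 0.072. For these the cause was not tested.

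The replicate block gave 1524 genes and 1 member. Deviations of same-numbered libraries correlated at 0.105, 0.0903, 0.302, 0.0816 and 0.0580, and 1 of 5 CON libraries matched its own number best, so the numbers were not taken to pair the libraries. Depth limits Ms4a4b, Ms4a2, Ms4a3 and Ms4a4d, with 82, 49, 26 and 7 counts in all.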
